A study of Rattus norvegicus with 14 samples.

Results

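The genes described here encode proteins of mitosis and of the transition from G2 phase into it, and they were chosen by symbol: cyclins, CDK1 and its phosphatases, mitotic kinases, checkpoint, kinetochore, spindle and cytokinesis proteins. Of 40 symbols, 39 had a row in the deposited tables of 17312 rat genes, and Anln had none. Levels are fragments per kilobase of transcript, scaled to library size (FPKM), so they are per length. Those called normalised FPKM come from a table in which the authors' normalisation brings the RNA spike-ins together (spike-in scale), and unnormalised FPKM come from a second table. All 39 genes had at least 1 FPKM in at least 2 libraries, the condition for testing, which 10133 genes met.

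A cell enters mitosis when CDK1, bound to cyclin A and then cyclin B, is switched on by Cdc25 phosphatases, and it leaves when the anaphase-promoting complex with its activator CDC20 marks cyclins and securin for destruction. Many of the genes are transcribed together late in the cycle: the MuvB complex with B-Myb (Mybl2) and FOXM1 acts at a promoter element called the cell cycle homology region (CHR), and NF-Y binds nearby CCAAT boxes, while in resting cells MuvB with p130 or p107 keeps them low. Smooth muscle cells of the aorta are mostly out of cycle, and platelet-derived growth factor (PDGF) is known as a mitogen for them.

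Rat aortic smooth muscle cells from a commercial source (Lonza) were grown in culture and kept without serum for 24 h before any treatment, in all groups. In 3 libraries each, cells were taken at 2 h or at 24 h of PDGF after 3 h of pretreatment with JQ1, an inhibitor of the bromodomains of BET proteins. PDGF alone, again for 2 h or 24 h, gave 3 libraries each, and unstimulated cells at 0 h gave 2. The doses were 500 nM JQ1 and 925 ng/ml PDGF, as the labels state them. Cells given only JQ1 and cells left without PDGF for the same hours are not analysed here, so PDGF and time in culture enter every PDGF comparison together. The sample titles carry one set of letters for cells without JQ1 and another for cells with it, and what the letters mean, if it is a batch, cannot be told apart from JQ1. The labels do not say that libraries of a group came from separate cultures, so the p-values measure the spread between these libraries, which may be technical. RNA selected for polyadenylation was read in single ends of 40 bases. The depth is unknown, and 9901 to 11503 genes were above 0 per library. Replicates are named by the digit that ends a column's name, and the library PDGF 2 h digit 1 stood apart, with the fewest genes above 0 and the highest normalised sum of the 39 genes in its group. Its unnormalised sum was 611 FPKM, and PDGF 2 h digits 0 and 2 had 611 and 541 FPKM. Genes at about 1 unnormalised FPKM (0.9 to 1.1) had a median of 2.13 normalised FPKM in it and 2.19 in PDGF 24 h digit 0, against 0.697 to 1.51 in the other libraries.

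Smooth muscle markers were detected, at levels that differ widely among them. In unstimulated cells the unnormalised level was 5530 FPKM for Acta2, 4244 for Tagln and 329 for Cnn1, which carried most of the sum of the list, and 5.28 for Myh11 and 5.25 for Myocd. Lum, a fibroblast marker, stood at 116 FPKM and Eng, an endothelial marker, at 46.0 FPKM in the same cells. The summed unnormalised level of 8 smooth muscle markers was 10857 to 11496 FPKM in cells with 2 h of PDGF and 10018 to 10416 FPKM in unstimulated cells, but 1265 to 1510 FPKM at 24 h of PDGF. With JQ1 plus PDGF it was 16677 to 16992 FPKM at 2 h and 385 to 450 FPKM at 24 h. The sum at 2 h follows Acta2 and Tagln, and its rise with JQ1 depends on the scale. On log2 of normalised FPKM plus 1, JQ1 at 2 h against PDGF alone gave 0.05 for Acta2 in limma (not called). On that scale Tagln was higher (0.48), and Myocd (-1.73), Lmod1 (-0.91) and Myh11 (-0.69) were lower than in PDGF alone. Of the leukocyte and endothelial markers, Ptprc, Aif1 and Cdh5 were listed at 0 in every library, Pecam1 did not pass 0.0408 FPKM in any, and the fibroblast marker Dpt was listed at 0 in every library. The endothelial sum was nearly all Eng. It was 20.4 to 24.9 FPKM in JQ1 plus PDGF at 24 h against 92.5 to 105 FPKM in PDGF at 24 h, and 21.2 to 22.8 FPKM in JQ1 plus PDGF at 2 h against 42.5 to 55.2 FPKM in PDGF at 2 h. Unstimulated cells had 45.4 to 46.7 FPKM. The leukocyte sum was 9.53 to 17.1 FPKM in JQ1 plus PDGF at 24 h against 36.9 to 52.9 FPKM in PDGF at 24 h, and 6.54 to 10.7 FPKM in JQ1 plus PDGF at 2 h against 17.7 to 22.6 FPKM in PDGF at 2 h, with 13.8 to 17.6 FPKM in unstimulated cells. Its genes moved in opposite directions at 24 h: Cd14 was at a mean of 4.46 FPKM with JQ1 and 43.2 without it, and Cd68 at 8.49 with JQ1 and 0.427 without it. The fibroblast sum, mostly Lum, was 6.10 to 8.44 FPKM in JQ1 plus PDGF at 24 h against 95.7 to 115 FPKM in PDGF at 24 h, and 90.2 to 108 FPKM in JQ1 plus PDGF at 2 h against 102 to 115 FPKM in PDGF at 2 h, with 125 to 130 FPKM in unstimulated cells. The part of these marker levels in the results below was not tested.

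The promoters show what most of these genes share in sequence. RefSeq windows of the rat assembly GRCr8, from 250 bases before to 50 bases after the annotated start, matched 33 of the 39 genes by symbol. Ccna2, Aurkb, Ube2c, Tpx2, Racgap1 and Pbk had no match. Kif2c has 2 windows and was counted once. A window was searched on both strands for the CHR letters TTTGAA or TTCGAA, for CCAAT, and for the E2F-like letters TTCGCGC, with TTGGCGC, with TTCCCGC and with TTGCCGC as further forms. The sequences of 4 genes are given from 5′ to 3′ on the gene's strand. Capitals mark CHR letters and CCAAT boxes, and the reverse strand reads TTCAAA and ATTGG. Cdk1, which had the highest level of the 39 genes in unstimulated cells, lies on the plus strand at chr20:19265043-19265342. Ccnb2, a cyclin B gene, is shown for its evenly spaced CCAAT boxes and lies on the minus strand at chr8:79981609-79981908. Plk1, the gene of a kinase that drives mitotic entry and spindle assembly, lies on the plus strand at chr1:186147408-186147707. It is shown because its log2 difference between 2 h of PDGF and unstimulated cells was the lowest of the 39 genes. Nuf2, a kinetochore gene, is shown as one without a CCAAT box and lies on the minus strand at chr13:84255549-84255848.
Cdk1: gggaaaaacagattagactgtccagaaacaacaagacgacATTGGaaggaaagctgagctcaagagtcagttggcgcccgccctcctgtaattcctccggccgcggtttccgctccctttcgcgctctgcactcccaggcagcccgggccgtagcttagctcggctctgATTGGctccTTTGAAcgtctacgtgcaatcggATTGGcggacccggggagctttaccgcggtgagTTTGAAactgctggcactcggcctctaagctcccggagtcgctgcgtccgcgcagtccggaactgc
Ccnb2: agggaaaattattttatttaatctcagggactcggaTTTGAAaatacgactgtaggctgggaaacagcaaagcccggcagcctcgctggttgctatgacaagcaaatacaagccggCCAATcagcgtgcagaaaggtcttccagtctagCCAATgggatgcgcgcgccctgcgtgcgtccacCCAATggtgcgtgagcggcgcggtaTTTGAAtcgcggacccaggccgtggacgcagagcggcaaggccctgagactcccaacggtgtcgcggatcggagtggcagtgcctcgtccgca
Plk1: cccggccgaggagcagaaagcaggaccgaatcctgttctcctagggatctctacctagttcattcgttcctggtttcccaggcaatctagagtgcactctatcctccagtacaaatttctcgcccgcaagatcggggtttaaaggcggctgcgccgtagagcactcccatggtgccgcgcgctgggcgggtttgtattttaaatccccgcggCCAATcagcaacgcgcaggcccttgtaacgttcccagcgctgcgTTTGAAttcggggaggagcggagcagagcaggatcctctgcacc
Nuf2: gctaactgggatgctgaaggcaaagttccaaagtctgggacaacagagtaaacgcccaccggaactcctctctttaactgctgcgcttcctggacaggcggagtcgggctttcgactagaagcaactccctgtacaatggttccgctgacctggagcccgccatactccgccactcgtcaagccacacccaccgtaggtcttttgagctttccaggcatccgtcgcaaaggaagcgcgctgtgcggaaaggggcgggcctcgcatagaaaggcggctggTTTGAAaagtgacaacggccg

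In Ccnb2 the CCAAT boxes began 134, 101 and 68 bases before the start, 33 bases apart, and CHR letters began 214 and 43 bases before it. Cdk1 had reversed CCAAT boxes 210, 81 and 49 bases before the start, with CHR letters 72 and 16 bases before it. In Plk1 a single CCAAT box lay 38 bases before the start and CHR letters began 7 bases after it, and in Nuf2 CHR letters began 30 bases after the start. CHR letters were found in 25 of 33 windows (75.8%), against 19.7% of all 33469 windows in the table. CCAAT was found in 25 of 33 (75.8%), against 37.5% of all windows. Both occurred in 21 of 33 (63.6%), against 7.95%, and 18 of 33 (54.5%) had at least 2 CCAAT boxes, against 11.2%. The E2F-like letters were in 5 of 33 (15.2%), against 9.52%. In 2 windows CHR and CCAAT letters overlapped. These matches are descriptions of letters, not of binding.

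**Figure D1:**
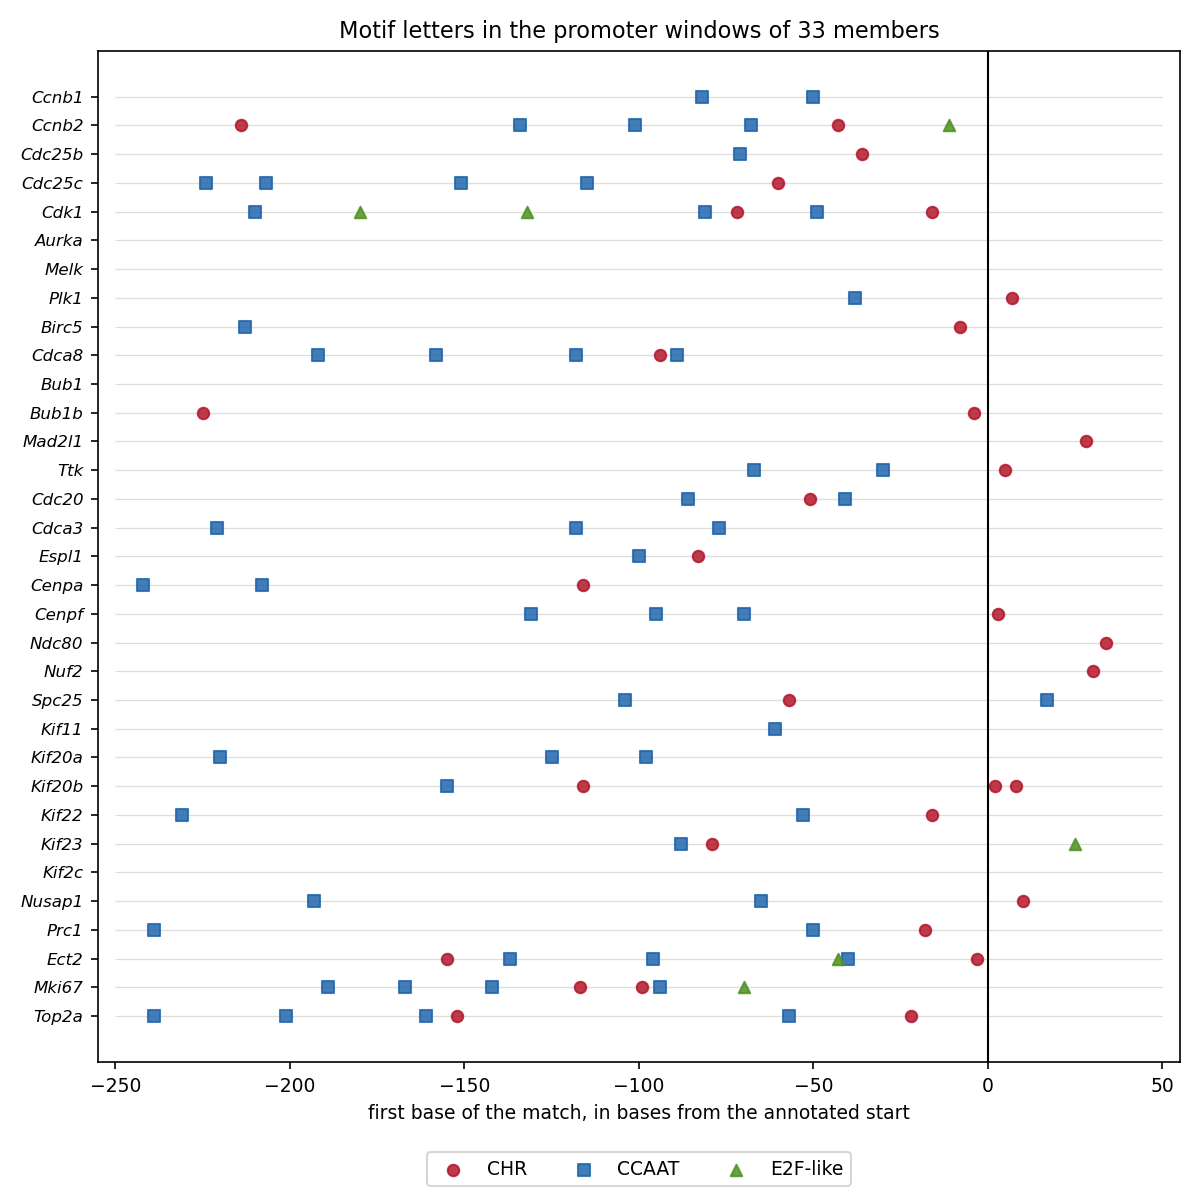
Position of CHR letters (circles), CCAAT boxes (squares) and E2F-like letters (triangles) in the promoter windows of 33 genes. The horizontal axis gives the first base of the match in bases from the annotated start (0), and each row is a gene. CCAAT boxes lie mostly upstream of the start, and CHR letters mostly close to it.

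In unstimulated cells the levels ran from 4.46 ± 0.93 normalised FPKM for Espl1, the separase gene, to 77.5 ± 1.89 normalised FPKM for Cdk1 (SD, n = 2). Prc1, a bundler of spindle midzone microtubules, followed at 54.8 ± 2.59. Next came Cdc20 (50.2 ± 2.31), Ube2c, the gene of a ubiquitin-conjugating enzyme of the anaphase-promoting complex (49.1 ± 12.5), and the kinesin gene Kif20a (42.0 ± 6.66), all in normalised FPKM (SD, n = 2). Cdc20 and Ube2c did not differ beyond their spread, nor did Nuf2, Cdca8 and Kif23 (33.9 ± 2.61, 33.7 ± 2.27 and 32.4 ± 1.51). At the low end, Kif20b (7.05 ± 0.65) and Racgap1 (6.63 ± 1.88) stood above Espl1, and the proliferation marker gene Mki67 was at 7.83 ± 1.05.

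Summed over the 39 genes, the level was highest in unstimulated cells, and it was lower in every other group. The libraries of unstimulated cells had sums of 868 and 884 normalised FPKM (876 ± 11.0, n = 2). At 2 h of PDGF the sums were 554, 698 and 578 (610 ± 77.2, n = 3), and at 24 h they were 325, 288 and 298 (304 ± 18.9, n = 3). No library of 2 h or 24 h of PDGF reached the unstimulated pair. JQ1 plus PDGF gave 313, 364 and 337 at 2 h (338 ± 25.2) and 56.9, 49.5 and 49.4 at 24 h (52.0 ± 4.32, SD, n = 3 each), so libraries with JQ1 lay below those with PDGF alone at each time without overlap. In bulk RNA, fewer cells in G2 or mitosis and less of each RNA per cell cannot be told apart. At 24 h of JQ1 plus PDGF, 21 to 23 of the 39 genes were under 1 unnormalised FPKM in a library, Cenpa was listed at 0 in 1 library and Racgap1 in another. Differences are given on a log2 scale of normalised FPKM plus 1, which understates the change of genes this low.

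**Figure D2:**
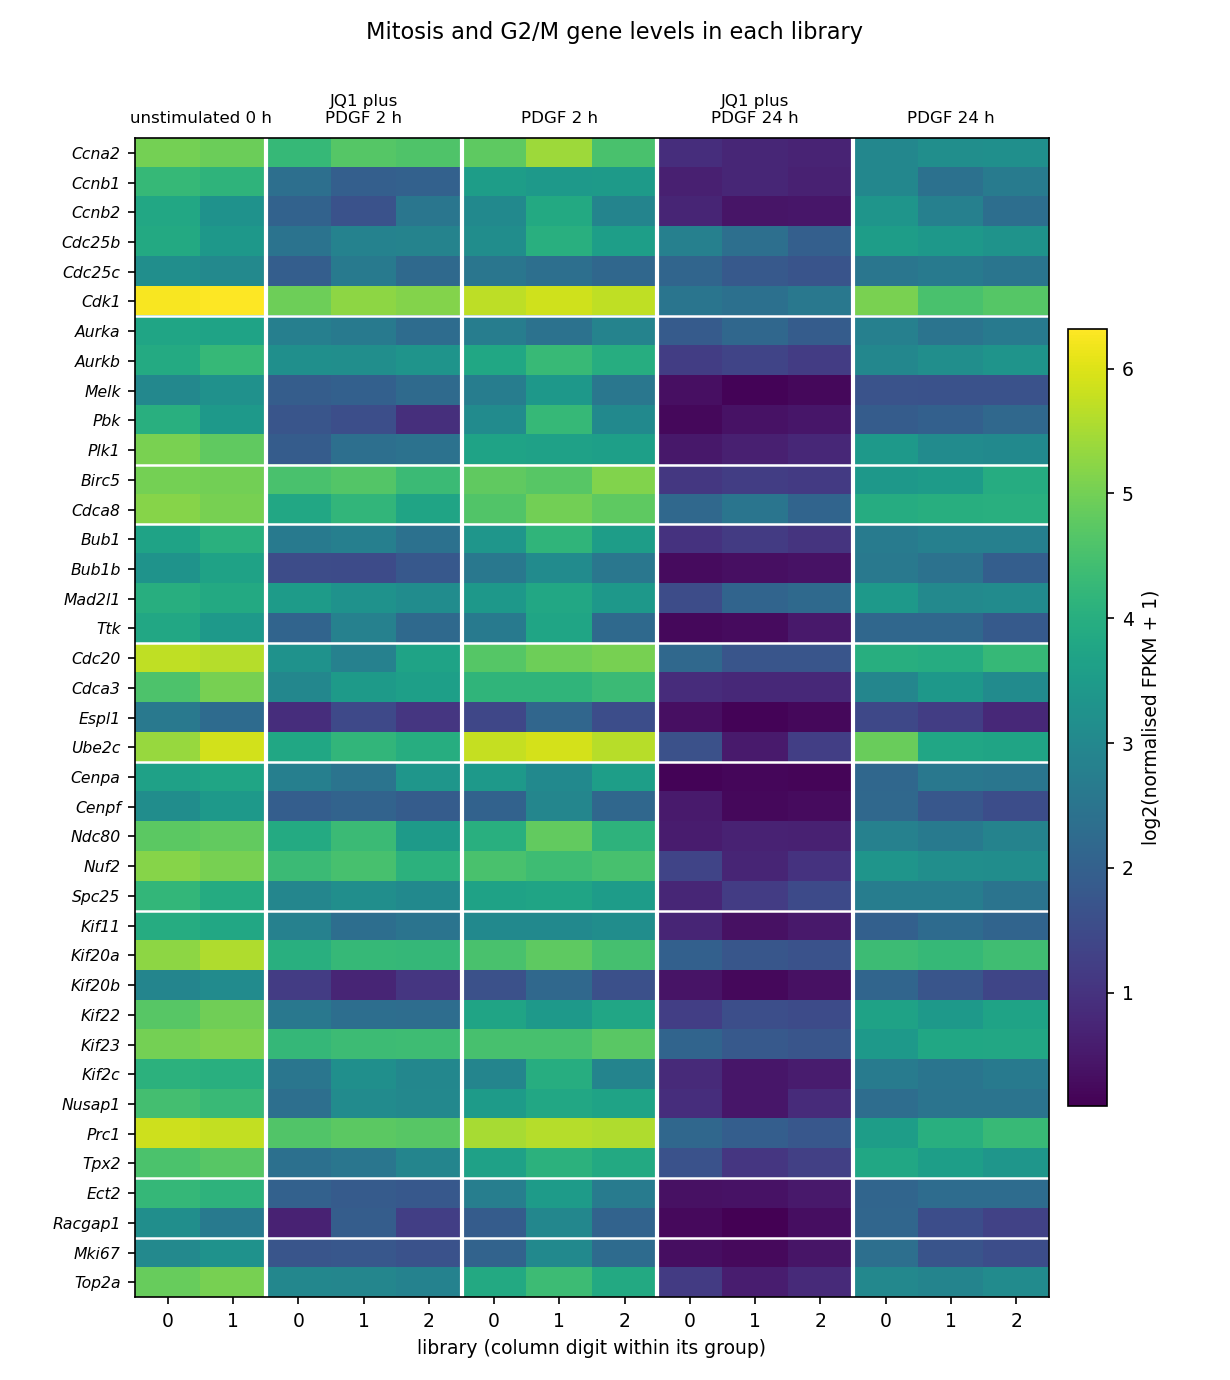
Level of the 39 genes (rows, grouped by role) in each of the 14 libraries (columns, named by group and column digit), as log2 of normalised FPKM plus 1. The columns of JQ1 plus PDGF at 24 h are the darkest, and those of unstimulated cells the lightest, with Cdk1 highest of the 39 genes at 77.5 normalised FPKM.

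After 2 h of PDGF some of the genes were already lower than in unstimulated cells and none was higher, but the genes split within their roles. In limma, 18 of 39 genes were called lower (adjusted p under 0.05 over all genes tested) and 0 higher, with 22 at an unadjusted p under 0.05. Of all genes tested 12.7% were lower and 17.7% higher. The median difference was -0.64 for the 39 genes and 0.01 for all genes. Plk1, Ect2 and Kif20b had the lowest differences. The kinase gene Plk1 had 12.0, 11.5 and 11.2 normalised FPKM in the libraries with 2 h of PDGF, against 32.2 and 27.0 in unstimulated cells (difference -1.28 ± 0.21 SE, adjusted p = 0.000307). The kinase gene Aurka, whose product acts at spindle poles, had 5.63, 4.38 and 6.31 normalised FPKM with PDGF, against 12.5 and 12.0 in unstimulated cells (-1.05 ± 0.22, adjusted p = 0.00189). In both genes each library with PDGF lay below both unstimulated libraries.

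Spindle kinesins and microtubule factors had the highest share of calls at 2 h, 7 of 9. Kif22, the gene of a chromosome-arm kinesin, had 12.3, 9.92 and 12.7 normalised FPKM with PDGF, against 25.1 and 30.4 in unstimulated cells (-1.18 ± 0.20). Kif20b, another spindle kinesin gene, had 2.08, 3.61 and 2.06, against 6.58 and 7.51 (-1.19 ± 0.28). Kif20a, needed for cytokinesis, had 22.1, 26.5 and 21.2, against 37.3 and 46.7 (-0.82 ± 0.17), and the groups of all 3 genes were apart. Ect2, which activates RhoA at the division plane, had 5.74, 10.5 and 5.40 normalised FPKM with PDGF, against 18.0 and 16.5 in unstimulated cells (-1.20 ± 0.25). Top2a, the topoisomerase that untangles chromosomes, had 13.6, 19.5 and 13.6, against 28.5 and 32.1 (-0.94 ± 0.21). The same library with PDGF, column digit 1, was the highest of its group in Ect2 and Top2a, though still below the unstimulated pair. The smallest differences that passed were those of Nuf2 (-0.64 ± 0.20), Cdk1 (-0.53 ± 0.16) and the midzone kinesin gene Kif23 (-0.49 ± 0.17).

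Against these, Ube2c, Ccna2, Aurkb and Birc5 were near their unstimulated levels at 2 h. Ube2c had 53.8, 59.6 and 49.1 normalised FPKM with PDGF, against 40.2 and 58.0 in unstimulated cells (0.16 ± 0.33, adjusted p = 0.766). Ccna2, the cyclin A2 gene, had 26.6, 41.5 and 22.3, against 31.4 and 29.4 (-0.06 ± 0.22, adjusted p = 0.868). Aurkb, the kinase of the passenger complex, had 12.9, 18.7 and 14.8, against 13.8 and 18.2 (-0.05 ± 0.20). In these 3 genes the groups overlapped. Birc5, the passenger complex gene for survivin, was at -0.13 ± 0.19 and Prc1 at -0.23 ± 0.19, and neither passed. Mki67 had 3.22, 7.20 and 3.80 normalised FPKM with PDGF, against 7.08 and 8.57 in unstimulated cells (-0.68 ± 0.30, adjusted p = 0.102), and the library with digit 1 overlapped the unstimulated range. The ranges of the groups were apart, with PDGF lower, in 26 of 39 genes, against 24.1% of all genes tested. With unnormalised FPKM scaled to a common median (median-centred scale), 23 genes were lower, against 19.3% of all genes (20.3% higher). Without either library of unstimulated cells the count was 7, and 6 genes were called in both cases: Plk1, Aurka, Ect2, Kif20a, Kif22 and Top2a. With single libraries of the comparison left out, 586 to 1515 of all genes were lower, against 1282 with none left out.

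At 24 h of PDGF nearly all of the genes were below unstimulated cells, in every role, whereas most of all the genes that changed on the spike-in scale were higher. Of the 39 genes, 36 were lower and 0 higher, against 4.85% lower and 37.7% higher of all genes tested. The median difference was -1.42, and that of all genes was 0.41. The median gene stood at 33.9% of its unstimulated normalised FPKM, with a range from 21.6% (Ect2) to 84.0% (Cdc25b). All 5 kinase genes, all 5 centromere and kinetochore genes, all 4 checkpoint genes and all 9 spindle genes were called. In the role of cyclins, CDK1 and its phosphatases 3 of 6 were.

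The lowest differences were those of Ndc80, Top2a and Nusap1, with Ect2 next (-1.95 ± 0.25). Ndc80, which with Nuf2 and Spc25 links kinetochores to microtubules, had 6.04, 5.17 and 6.36 normalised FPKM at 24 h of PDGF, against 25.9 and 27.2 in unstimulated cells (-2.01 ± 0.26, adjusted p = 2.38e-05). Top2a had 6.94, 6.40 and 7.56, against 28.5 and 32.1 (-1.97 ± 0.21). Nusap1, a spindle protein that binds microtubules, had 4.0, 4.56 and 4.60, against 20.8 and 19.0 (-1.96 ± 0.24). In each of these genes the libraries of a group lay close together and the groups were far apart. Cdk1 had 32.3, 22.0 and 24.4 normalised FPKM, against 76.1 and 78.8 (-1.54 ± 0.16), and Ccnb1, the cyclin B1 gene, had 6.87, 4.35 and 5.46, against 18.2 and 16.8 (-1.51 ± 0.21). The library with 24 h of PDGF and column digit 0 was the highest of its group in both. Tpx2, a spindle assembly factor gene (-1.04 ± 0.23), Aurkb (-0.93 ± 0.20) and the checkpoint gene Mad2l1 (-0.75 ± 0.23) showed the smallest differences that passed. Mad2l1 lost its call without either library of unstimulated cells and without PDGF 24 h digit 1 or 2.

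The genes that did not pass at 24 h of PDGF were Cdc25b, Cdc25c and Ccnb2. Other genes that act on the entry into mitosis were called lower, among them Cdk1, Ccnb1, Ccna2 and Plk1. Cdc25b had 10.8, 9.69 and 8.81 normalised FPKM, against 13.6 and 9.65 in unstimulated cells (-0.22 ± 0.28, adjusted p = 0.553). Cdc25c had 4.77, 5.30 and 4.66, against 7.91 and 7.10 (-0.52 ± 0.23, adjusted p = 0.0792). Ccnb2 had 9.11, 5.95 and 4.04, against 13.1 and 8.67 (-0.72 ± 0.35, adjusted p = 0.107). The groups overlapped in Cdc25b and Ccnb2 and were apart in Cdc25c. Ranges were apart, with PDGF lower, in 37 of 39 genes, against 9.14% of all genes (61.1% with PDGF higher). The median-centred scale, which takes out the upward shift of all genes, gave all 39 as lower, against 13.4% lower and 14.8% higher of all genes, with Cdc25b at -0.64, Cdc25c at -0.92 and Ccnb2 at -1.14. Without single libraries 33 to 37 of the 39 genes and 336 to 443 of all genes were lower.

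**Figure D3:**
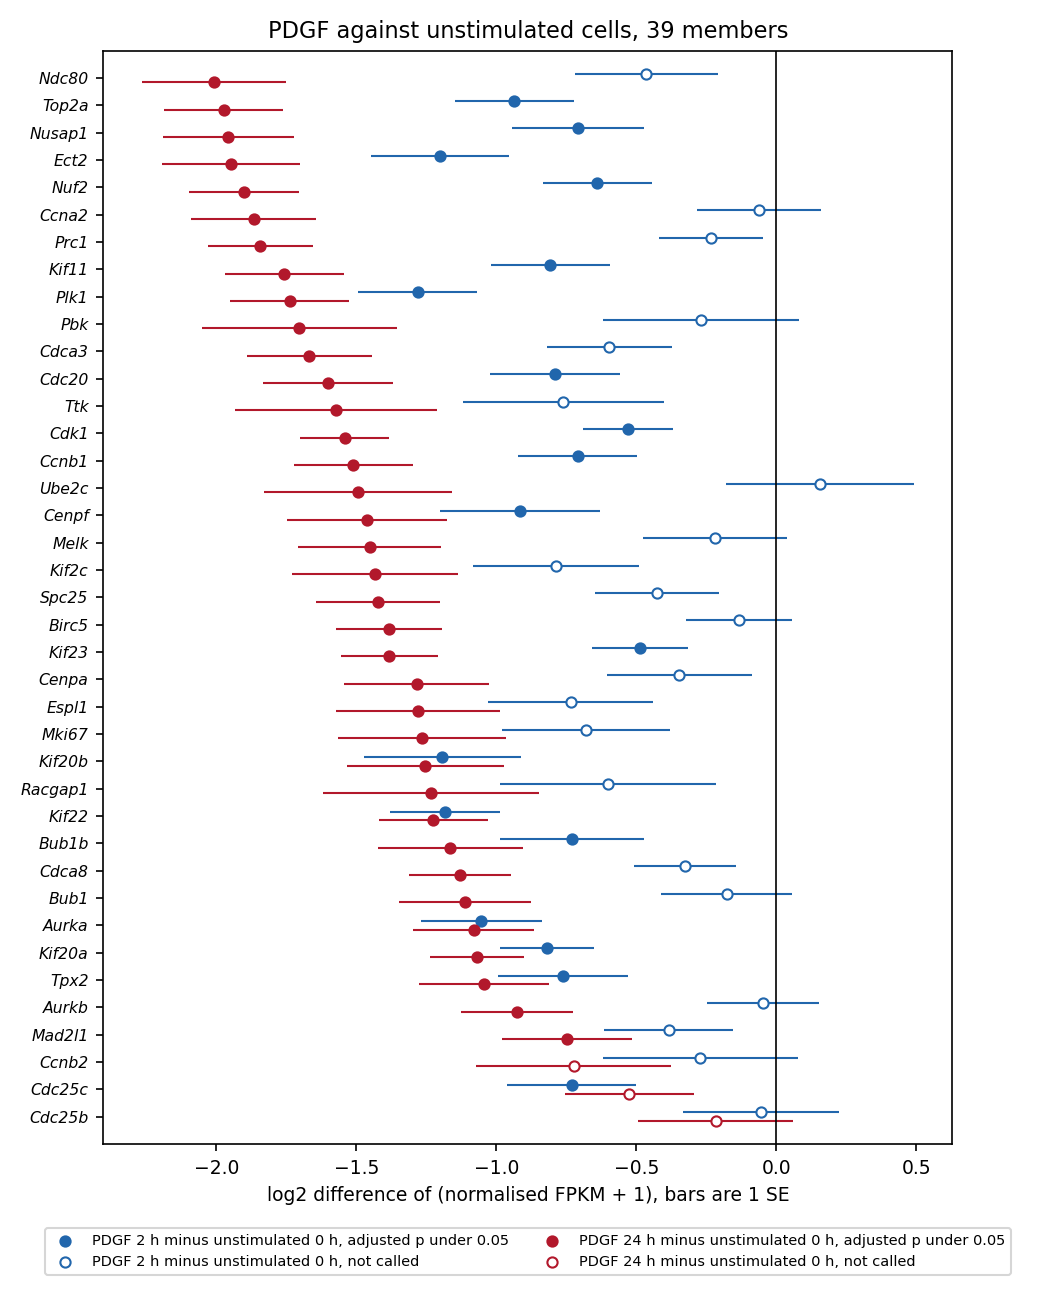
Difference of PDGF minus unstimulated cells for the 39 genes, at 2 h (blue) and at 24 h (red), as log2 of normalised FPKM plus 1, with bars of 1 SE. Filled points passed an adjusted p of 0.05. Ndc80 is lowest at 24 h (-2.01), and Plk1 at 2 h (-1.28), while Ube2c, Ccna2 and Aurkb stand near 0 at 2 h and well below it at 24 h.

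Some genes that were near their unstimulated levels at 2 h of PDGF, such as Ccna2 and Ube2c, were lower at 24 h than at 2 h. Cdc25b, at 97.8% of its unstimulated normalised FPKM at 2 h and 84.0% at 24 h, was not called. Of the 39 genes, 24 were lower at 24 h than at 2 h and 0 higher, against 11.8% lower and 44.5% higher of all genes, with medians of -0.81 and 0.39. Ccna2 had 6.88, 7.92 and 8.07 normalised FPKM at 24 h, against 26.6, 41.5 and 22.3 at 2 h (-1.81 ± 0.20, adjusted p = 3.43e-06). Ube2c had 28.6, 12.7 and 12.2, against 53.8, 59.6 and 49.1 (-1.65 ± 0.30). Prc1 had 10.8, 15.2 and 18.7, against 44.4, 48.1 and 46.9 (-1.61 ± 0.17). All 3 genes were apart between the times, although 1 library at 24 h was well above the others in Ube2c.

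By the pattern of calls, 15 genes were called only in the 2 comparisons with 24 h of PDGF, among them Ccna2, Ube2c, Prc1, Birc5, Aurkb, Ndc80 and Pbk. In 9 genes the level was lower at 2 h than in unstimulated cells and lower again at 24 h than at 2 h, including Cdk1, Ccnb1, Cdc20, Nuf2 and Top2a. In 8 genes the call at 2 h was not followed by a further one, including Plk1, Aurka, Kif20a, Kif22 and Tpx2. Cdc25c was called only at 2 h against unstimulated cells, and Ccnb2 and Cdc25b in none of these comparisons. Aurka was 6.03, 4.60 and 5.26 normalised FPKM at 24 h against 5.63, 4.38 and 6.31 at 2 h (-0.03 ± 0.19), and Kif22 was 11.9, 9.84 and 12.1 against 12.3, 9.92 and 12.7 (-0.04 ± 0.17). Plk1 (-0.46 ± 0.19, adjusted p = 0.0515), Mki67 (-0.59 ± 0.27) and Kif20a (-0.25 ± 0.15) did not pass either. After median centring 35 genes were lower at 24 h, against 25.8% lower and 26.6% higher of all genes, and Plk1 was among them (-0.81), whereas Aurka and Kif22 were not. Ranges were apart in 26 of 39 genes, with 24 h lower, against 12.9% of all genes. The smallest difference that passed, that of Kif2c (-0.65 ± 0.27), was lost without PDGF 2 h digit 1 or without any 1 library of PDGF at 24 h.

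**Figure D4:**
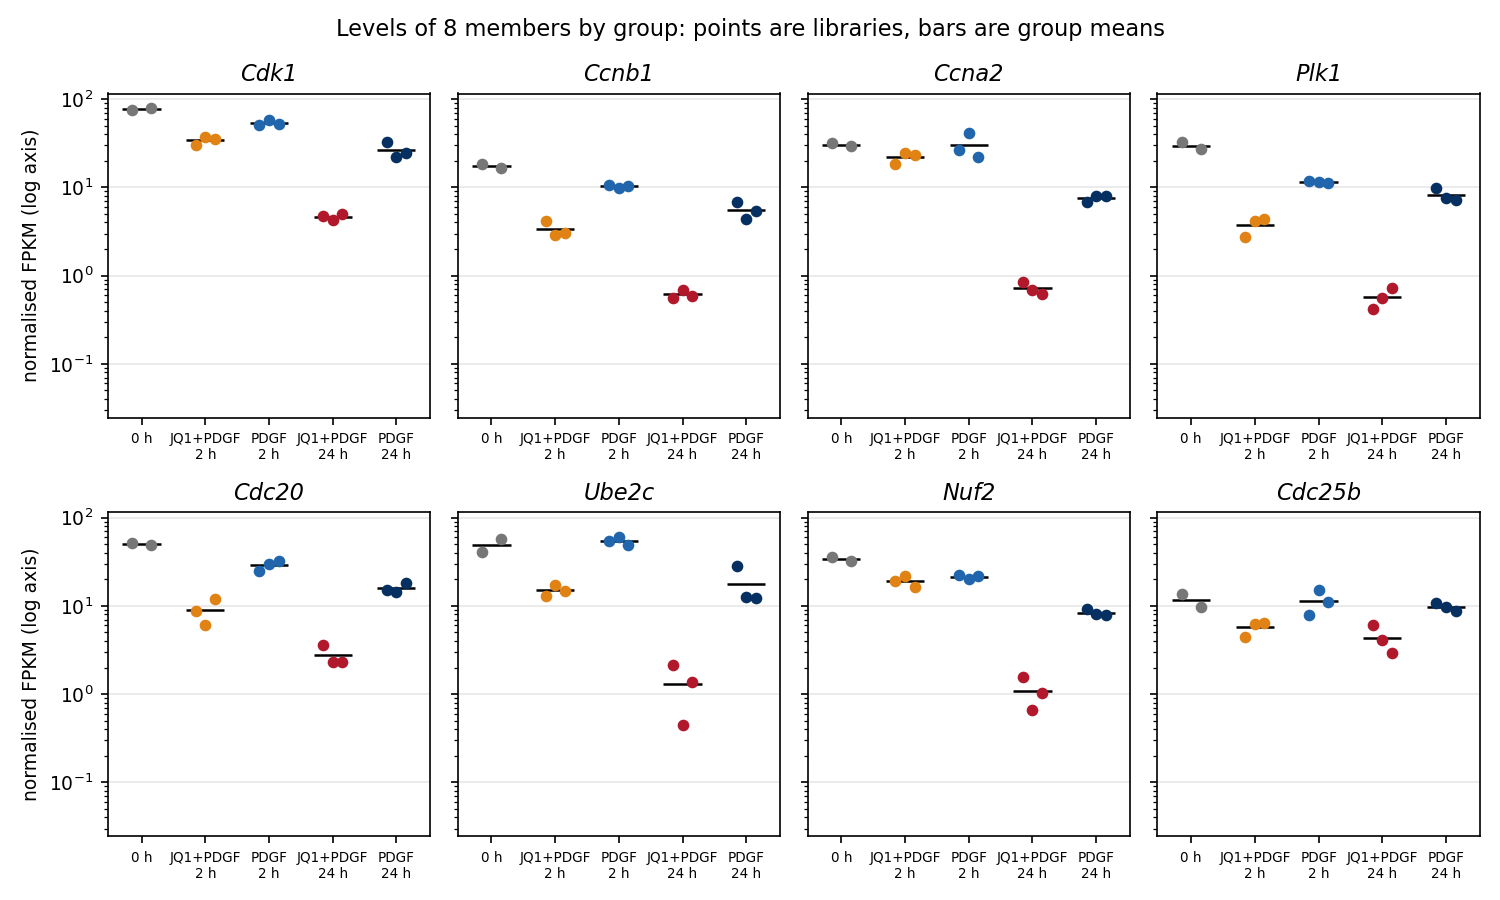
Level of 8 genes in every library (points) and the mean of each group (bars), in normalised FPKM on a log axis. Cdk1 falls stepwise, with 77.5 in unstimulated cells, 53.4 at 2 h and 26.3 at 24 h of PDGF, Ccna2 and Ube2c with PDGF alone are low at 24 h and not at 2 h, and the lowest group in all 8 panels is JQ1 plus PDGF at 24 h.

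Many of the genes were lower with JQ1 already at 2 h of PDGF, unevenly between roles. Compared with PDGF alone at 2 h, 26 of 39 genes were lower and 0 higher, with a median of -0.81. In the same comparison 34.0% of all genes were lower and 7.24% higher, with a median of -0.29. Pbk, the gene of a mitotic kinase, had 2.33, 1.99 and 0.890 normalised FPKM in JQ1 plus PDGF at 2 h, against 7.53, 18.2 and 7.21 in PDGF at 2 h (-2.05 ± 0.31, adjusted p = 0.000117). Ube2c had 12.9, 17.4 and 14.7, against 53.8, 59.6 and 49.1 (-1.79 ± 0.30), and Cdc20 had 8.65, 6.04 and 12.0, against 24.8, 29.6 and 31.9 (-1.63 ± 0.21). Thus Ube2c, which had not passed the test with PDGF at 2 h, was among the lowest with JQ1, and the groups of all 3 genes were apart.

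Plk1 and Ccnb1 also had some of the lowest differences with JQ1 at 2 h of PDGF, but regulators of mitotic entry were uneven. The cyclins, CDK1 and phosphatases had 4 calls of 6, with a median of -0.75. Both cytokinesis genes were called, with a median of -1.05. Plk1 had 2.76, 4.19 and 4.41 normalised FPKM, against 12.0, 11.5 and 11.2 in PDGF alone (-1.41 ± 0.19), and Ccnb1 had 4.17, 2.91 and 3.05, against 10.7, 9.91 and 10.3 (-1.38 ± 0.19). Of the 4 genes of the anaphase ubiquitin ligase and separase 3 were called, with a median of -1.25, and of the 9 spindle genes 7 were, with a median of -0.81. The centromere and kinetochore genes had 1 call of 5, that of Spc25 (-0.59 ± 0.20), with a median of -0.42. Nuf2 had 19.2, 21.8 and 16.2 normalised FPKM with JQ1 plus PDGF, against 22.2, 20.0 and 21.9 in PDGF alone (-0.16 ± 0.18). Aurka had 5.84, 5.35 and 3.90, against 5.63, 4.38 and 6.31 (-0.10 ± 0.19). Both overlapped, as did Cdc25c (-0.09 ± 0.21) and Ccna2 (-0.40 ± 0.20), and Birc5 did not pass either (-0.37 ± 0.17).

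The scale matters for JQ1 at 2 h, since the median of all genes moved down. On the median-centred scale 20 of 39 genes were lower, against 21.4% lower and 20.0% higher of all genes, and the median of the 39 was -0.54. Pbk (-1.86), Ube2c (-1.49), Cdc20 (-1.34), Plk1 (-1.14) and Ccnb1 (-1.11) were lower there as well, whereas Cdk1 (-0.32), Spc25, Kif11, Kif20a, Kif20b and Mki67 no longer passed. Nuf2, Aurka, Cdc25c and Kif23, none of which passed, changed sign there (0.15, 0.21, 0.21 and 0.07). Ranges were apart, with JQ1 plus PDGF lower, in 27 of 39 genes, against 38.1% of all genes (8.99% higher). Without single libraries 21 to 26 of the 39 genes and 2774 to 3886 of all genes were lower. The smallest calls went first: Spc25, Kif11 and Kif20a lost theirs without PDGF 2 h digit 0, 2 and 1, among others.

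At 24 h of PDGF every one of the 39 genes was lower with JQ1 than without it, in limma. The background was high as well: 48.5% of all genes were lower and 4.61% higher. The medians were -1.89 for the 39 genes and -0.48 for all genes. The median gene stood at 12.0% of its normalised FPKM in PDGF alone, and the genes ran from 2.80% (Cenpa) to 55.9% (Aurka). Ube2c had 2.12, 0.448 and 1.37 normalised FPKM in JQ1 plus PDGF at 24 h, against 28.6, 12.7 and 12.2 in PDGF at 24 h (-2.99 ± 0.30, adjusted p = 7.27e-07). Plk1 had 0.414, 0.565 and 0.717, against 9.77, 7.60 and 7.24 (-2.55 ± 0.19), and Kif20a had 3.00, 2.38 and 2.18, against 19.6, 18.3 and 20.1 (-2.54 ± 0.15). Birc5 had 1.12, 1.33 and 1.22, against 9.66, 10.4 and 14.4 (-2.47 ± 0.17). In these 4 genes even the highest library with JQ1 was far below the lowest without it.

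Cyclins and CDK1 were among the lowest too. Ccna2 had 0.856, 0.687 and 0.626 normalised FPKM in JQ1 plus PDGF at 24 h, against 6.88, 7.92 and 8.07 in PDGF at 24 h (-2.32 ± 0.20). Cdk1 had 4.70, 4.26 and 5.00, against 32.3, 22.0 and 24.4 (-2.25 ± 0.14), and Ccnb1 had 0.559, 0.687 and 0.590, against 6.87, 4.35 and 5.46 (-2.01 ± 0.19). Cdk1 thus kept a level several FPKM above the cyclins that activate its product. Cenpa, the centromeric histone gene, had 0.102, 0.145 and 0.122 normalised FPKM, against 3.52, 4.95 and 4.78 (-2.26 ± 0.23). Before normalisation the first of these libraries with JQ1 was listed at 0. Mki67 had 0.248, 0.192 and 0.361, against 4.13, 2.25 and 1.93 (-1.53 ± 0.27).

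The smallest differences at 24 h were those of Aurka and Cdc25c. Aurka had 2.66, 3.48 and 2.75 normalised FPKM with JQ1, against 6.03, 4.60 and 5.26 without it (-0.67 ± 0.19, adjusted p = 0.00893), and Cdc25c had 3.33, 2.58 and 2.27, against 4.77, 5.30 and 4.66 (-0.67 ± 0.21, adjusted p = 0.0121). Cdc25b, a phosphatase gene that is active early in mitotic entry, had 6.02, 4.15 and 2.95, against 10.8, 9.69 and 8.81 (-1.04 ± 0.25), and the separase gene Espl1 was at -0.92 ± 0.26. Espl1 was low in both groups, at 4.05% of its unstimulated normalised FPKM with JQ1 and 28.4% without it, so adding 1 understates its change. The groups were apart in all 39 genes, with JQ1 plus PDGF lower, against 57.4% of all genes (6.99% higher). With median centring 37 genes were lower, against 25.8% lower and 23.1% higher of all genes, and the other two were Aurka (-0.18) and Cdc25c (-0.19). Cdc25c also lost its call without JQ1 plus PDGF 24 h digit 2. With a pseudocount of 0.1 in place of 1, the median of the 39 genes was -2.90.

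Within cells given JQ1 and PDGF the level dropped further with time. At 24 h, 37 of 39 genes were lower than at 2 h of the same treatment and 0 higher, against 17.4% lower and 29.0% higher of all genes, with medians of -1.65 and 0.14. Ccna2 had 0.856, 0.687 and 0.626 normalised FPKM at 24 h, against 18.2, 24.4 and 23.3 at 2 h (-3.73 ± 0.20, adjusted p = 7.27e-10). Birc5 had 1.12, 1.33 and 1.22, against 22.2, 24.1 and 19.2 (-3.36 ± 0.17). Nuf2 had 1.58, 0.661 and 1.02, against 19.2, 21.8 and 16.2 (-3.28 ± 0.18). All 3 are genes whose difference with JQ1 at 2 h had not passed the test. Cdc25b (-0.35 ± 0.25) and Cdc25c (-0.38 ± 0.21) did not pass, and the smallest differences that did were those of Aurka (-0.60 ± 0.19), Kif20b (-0.66 ± 0.25) and Espl1 (-0.91 ± 0.26). For Kif20b and Espl1, both at low levels, adding 1 understates the change. They stood at 3.84% and 4.05% of their unstimulated normalised FPKM at 24 h, against 14.5% and 27.8% at 2 h. Aurka lost its call without JQ1 plus PDGF 2 h digit 0 or 1 or without JQ1 plus PDGF 24 h digit 0 or 2. Kif20b lost it without JQ1 plus PDGF 2 h digit 0 or 2 or without any 1 library of JQ1 plus PDGF at 24 h. Ranges were apart in 37 of 39 genes, with 24 h lower, against 21.7% of all genes. All 39 genes were lower on the median-centred scale, against 27.4% lower and 25.3% higher of all genes. A pseudocount of 0.1 in place of 1 gave a median of -2.70 for the 39 genes.

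Between the times, the difference of JQ1 plus PDGF minus PDGF was compared in the same model, as 24 h minus 2 h. It was lower at 24 h in 21 of 39 genes and higher in 0, against 17.5% lower and 4.82% higher of all genes, with medians of -0.99 and -0.22. Kif20a stood at -2.54 with JQ1 at 24 h and -0.42 at 2 h, a change of -2.11 ± 0.21 (adjusted p = 4.72e-06). Birc5 stood at -2.47 and -0.37 (-2.10 ± 0.24), Nuf2 at -2.18 and -0.16 (-2.02 ± 0.25) and Ccna2 at -2.32 and -0.40 (-1.92 ± 0.28). All 5 centromere and kinetochore genes were in this set, with a median of -1.71, as were both partners of the passenger complex and 7 of 9 spindle genes. Of the cyclins, CDK1 and phosphatases only Ccna2 and Cdk1 (-1.61 ± 0.20) were.

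Of the 21 genes, 12 were lower with JQ1 at both times, among them Cdk1, Plk1, Top2a, Kif20a and Aurkb, and 9 were lower with JQ1 at 24 h and not called at 2 h: Birc5, Ccna2, Cenpa, Cenpf, Kif23, Kif2c, Mad2l1, Ndc80 and Nuf2. A further 14 genes were lower at both times without a difference between the times that passed. They include Cdc20 (-0.56 ± 0.29), Ccnb1 (-0.63 ± 0.27) and Pbk (0.39 ± 0.44), as well as Ube2c and Ect2. The remaining 4 were called at 24 h alone: Aurka, Cdc25c, Espl1 and Ttk. On the median-centred scale 20 genes passed, against 16.4% lower and 13.4% higher of all genes, and Kif22, Mad2l1 and Spc25 no longer did. With a pseudocount of 0.1 in place of 1, 31 genes passed, all lower at 24 h, and the median of the 39 genes was -1.80. The share of all genes that passed with that pseudocount is not given here. The rise from 21 to 31 can therefore not be read as particular to these genes. Without single libraries 17 to 29 of the 39 genes and 1300 to 2072 of all genes were called lower. Mad2l1 (-0.98 ± 0.29) and Spc25 (-0.91 ± 0.28) lost their calls without PDGF 2 h digit 2 or PDGF 24 h digit 0, among others. The call of Tpx2 (-0.99 ± 0.29) was lost without PDGF 2 h digit 0, PDGF 24 h digit 0, JQ1 plus PDGF 2 h digit 2 or JQ1 plus PDGF 24 h digit 1 or 2.

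**Figure D5:**
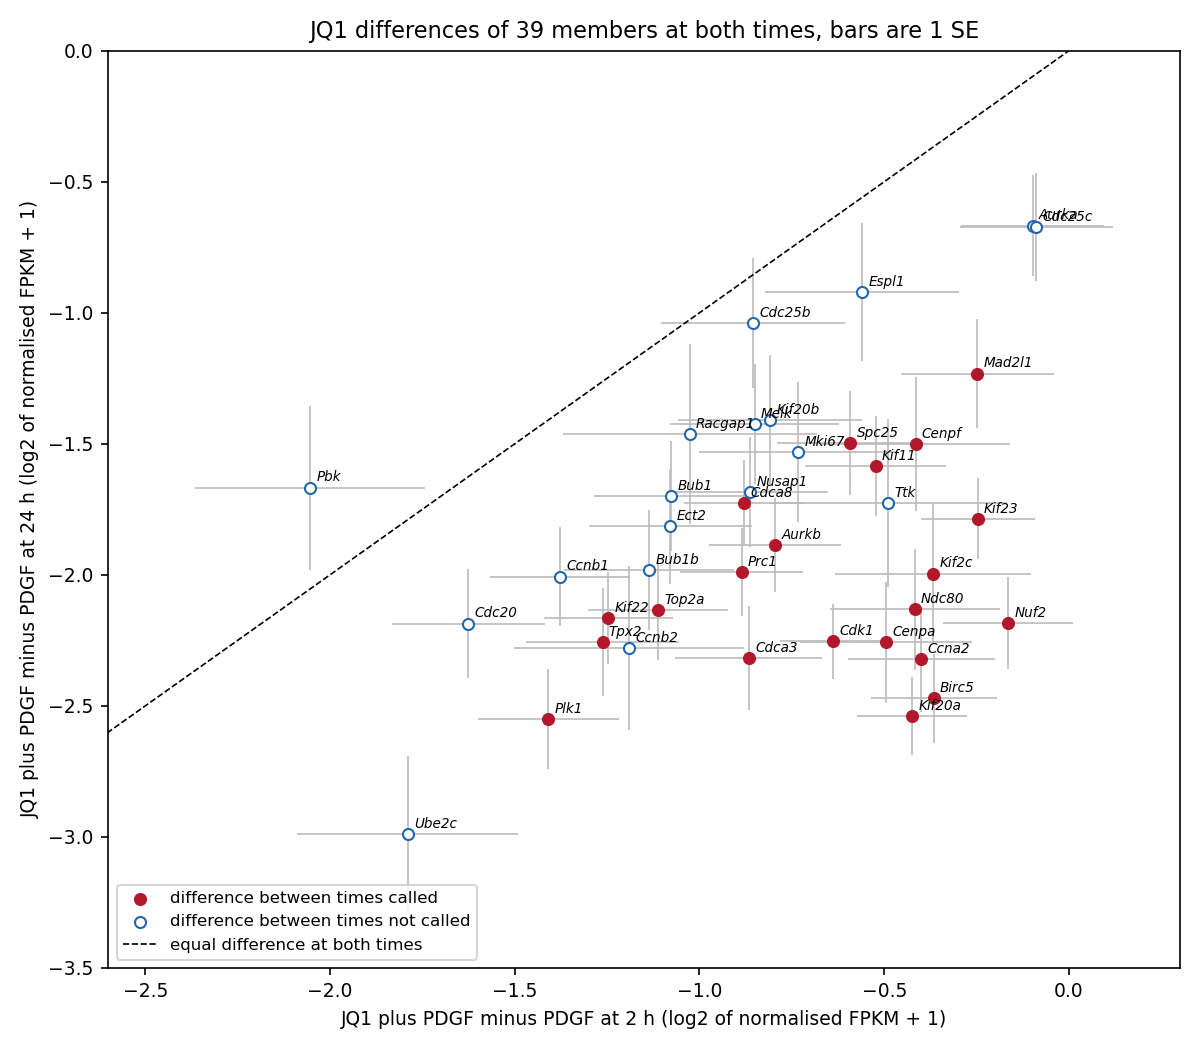
Difference of JQ1 plus PDGF minus PDGF for the 39 genes at 2 h (horizontal axis) and at 24 h (vertical axis), as log2 of normalised FPKM plus 1, with bars of 1 SE. Filled red points are the 21 genes whose difference changed between the times, and the dashed line marks equal differences. All genes but Pbk lie below the line, and Nuf2, Birc5 and Kif20a lie farthest from it.

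The other genes of mitosis, from a list of symbols not among the 39, were mostly lower too, with a few that were higher. Of 44 tested, 17 were lower and 1 higher at 2 h of PDGF, and 30 were lower and 1 higher at 24 h, both against unstimulated cells. The shares of all genes were 12.7% lower and 17.7% higher at 2 h, and 4.85% lower and 37.7% higher at 24 h. The lowest at 24 h were Fam64a (-2.30 ± 0.20), Nek2, the gene of a centrosome kinase (-2.24 ± 0.40), and Ska1, which helps kinetochores hold microtubules (-2.11 ± 0.32). Zwint, a kinetochore gene, was the one that was higher (0.54 ± 0.15, 0.09 on the median-centred scale). With JQ1 22 of the 44 were lower and 0 higher at 2 h, against 34.0% lower of all genes, and 34 were lower and 1 higher at 24 h, against 48.5% lower. After median centring these were 12 lower and 0 higher at 2 h (21.4% of all genes lower), and 25 lower and 3 higher at 24 h (25.8% lower). Gtse1, a gene of G2 phase and the spindle, had 1.35 ± 0.29 normalised FPKM in JQ1 plus PDGF at 24 h and 24.9 ± 0.50 in PDGF at 24 h (SD, n = 3 each), a difference of -3.47 ± 0.22. Pttg1, the securin gene, was at 0.915 ± 0.548 and 15.6 ± 0.11 normalised FPKM (-3.16 ± 0.26). Both differences were below that of any of the 39 genes, and Gtse1 was higher at 24 h than at 2 h of PDGF (1.01 ± 0.22).

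Genes of the anaphase-promoting complex, which cells also use outside mitosis, showed few calls between PDGF and unstimulated cells on the spike-in scale. Besides subunits, the list holds Fzr1, the gene of an activator, and Ube2s, the gene of a ubiquitin-conjugating enzyme. Of 15 tested, 1 was lower at 2 h of PDGF than in unstimulated cells. At 24 h 0 were lower and 2 higher (Anapc11 at 0.52 ± 0.16 and Anapc13 at 0.48 ± 0.17). Of all genes 12.7% were lower and 17.7% higher at 2 h, and 4.85% lower and 37.7% higher at 24 h. With median centring 5 were lower and 1 higher at 2 h, against 19.3% and 20.3% of all genes. At 24 h 3 were lower and 0 higher on that scale, against 13.4% and 14.8%, and Anapc11 (0.09) and Anapc13 (0.02) did not pass. Between 24 h and 2 h of PDGF 1 was lower (Ube2s, -0.72 ± 0.30) and 8 higher, against 11.8% lower and 44.5% higher of all genes. With median centring 4 were lower and 2 higher in this comparison, against 25.8% and 26.6%. With JQ1 9 were lower at 2 h and 12 at 24 h (34.0% and 48.5% of all genes), and 6 and 4 with median centring (21.4% and 25.8%).

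Among the regulators of these genes, Mybl2 and Foxm1 were lower at 24 h of PDGF than in unstimulated cells. Mybl2 had 3.04 ± 0.93 normalised FPKM at 24 h (SD, n = 3) and 8.76 ± 0.845 in unstimulated cells (SD, n = 2), a difference of -1.29 ± 0.26, and Foxm1 had 3.07 ± 0.72 and 9.03 ± 1.51 (-1.31 ± 0.30). E2f1 was lower (-0.83 ± 0.26), while E2f3 (0.88 ± 0.31) and Lin37, a MuvB subunit gene (0.42 ± 0.16), were higher on the spike-in scale and not called on the median-centred one (0.51 and -0.01). At 2 h of PDGF neither Mybl2 (0.44 ± 0.26) nor Foxm1 (-0.14 ± 0.30) passed. Mybl2 was lower with JQ1 at 24 h, at 0.784 ± 0.267 normalised FPKM against 3.04 ± 0.93 in PDGF alone (-1.16 ± 0.23). Foxm1 did not pass (-0.61 ± 0.26). Of 16 regulators tested, 3 were lower and 2 higher at 24 h of PDGF, against 4.85% lower and 37.7% higher of all genes. With JQ1 at 24 h 6 were lower and 0 higher, against 48.5% lower of all genes. These include Rbl2 and Rbl1, the genes of p130 and p107 (-1.07 ± 0.21 and -0.96 ± 0.22), both also lower on the median-centred scale (-0.57 and -0.51). With median centring 9 regulators were lower and 0 higher at 24 h of PDGF, against 13.4% and 14.8% of all genes. With JQ1 at 24 h 3 were lower and 4 higher on that scale, against 25.8% and 23.1%.

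Among brakes on the cycle and targets of p53, Cdkn1a and Mdm2 were higher at 2 h and 24 h of PDGF than in unstimulated cells. Ccng2 (-2.37 ± 0.18) and Cdkn1b (-1.56 ± 0.16) were lower at 2 h, also on the median-centred scale (-2.46 and -1.61). Of 12 tested, 4 were higher and 2 lower at 2 h, against 17.7% higher and 12.7% lower of all genes, and 6 were higher and 0 lower at 24 h, against 37.7% higher of all genes. With median centring 3 were higher and 3 lower at 2 h, against 20.3% and 19.3% of all genes. At 24 h 4 were higher and 2 lower on that scale, against 14.8% and 13.4%. Cdkn1a, the gene of the CDK inhibitor p21, had 245 ± 10.9 normalised FPKM at 24 h (SD, n = 3) and 96.9 ± 8.63 in unstimulated cells (SD, n = 2), a difference of 1.33 ± 0.14. Gadd45a (2.05 ± 0.19) and Mdm2, whose product drives the degradation of p53 (1.66 ± 0.15), were higher too at 24 h, and all 3 genes were higher there on the median-centred scale as well. With JQ1 at 24 h 8 of the 12 were lower and 1 higher, against 48.5% lower of all genes, and the lowest was Wee1, the gene of the kinase that holds CDK1 inactive (-2.47 ± 0.21). After median centring 6 were lower and 3 higher, against 25.8% and 23.1% of all genes. Those higher were Cdkn1a (0.65), Gadd45a (0.79) and Btg2 (1.03). Genes of G1/S and DNA replication had 6 of 35 lower and 0 higher at 2 h of PDGF, and 19 lower and 0 higher at 24 h, against 12.7% and 4.85% lower of all genes. With median centring 13 of the 35 were lower and 1 higher at 2 h, against 19.3% and 20.3% of all genes. At 24 h 27 were lower and 0 higher on that scale, against 13.4% and 14.8%. With JQ1 at 24 h 23 of the 35 were lower and 2 higher, against 48.5% lower of all genes. On the median-centred scale 12 were lower and 4 higher, against 25.8% and 23.1%. The lowest differences with JQ1 were those of Rrm2 (-3.28 ± 0.24), a ribonucleotide reductase gene, and Tk1, the thymidine kinase gene (-3.02 ± 0.15).

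The 21 genes with both CHR and CCAAT letters had a median difference of -1.38 for 24 h of PDGF against unstimulated cells, and the 12 with a window but without both had -1.44. For JQ1 at 24 h the medians were -1.79 and -1.99, and for JQ1 at 2 h they were -0.81 and -0.47. These medians carry no test.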

How the data were processed

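RNA-seq of 14 libraries was used, 2 of unstimulated cells and 3 in each other group. The authors deposited FPKM per gene in 2 tables, unnormalised and normalised. HISAT, Cufflinks 2.0.0 and the rat build rn6 are named in the submitters' processing notes. Neither the annotation nor the method of normalisation is stated in the sources used here. In the values, normalisation brings the 92 spike-ins together. Columns were assigned to groups by name, and their digits match no sample title. Replicates are therefore known by digit only.

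Values from the normalised table were taken as log2(FPKM + 1) after a filter of 1 FPKM in at least 2 libraries. All 14 libraries entered 1 model of 5 group means in limma 3.58.1 (R 4.3.3) with a mean-variance trend and 9 residual degrees of freedom. Every adjusted p is limma's with Benjamini-Hochberg adjustment over the 10133 genes tested. The fit was checked on simulated data. Alternatives were a median-centred scale (unnormalised FPKM over median-of-ratios size factors, 10001 genes), a pseudocount of 0.1, no filter, only the libraries compared, each library left out, and PDGF 2 h digit 1 and PDGF 24 h digit 0 left out together.

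The 40 symbols and the other gene lists were chosen with earlier results of these data known. Any of the 40 may be named, with per-library values for 14 core genes and for the 3 called genes with the lowest and the 3 with the highest difference in each comparison. From the other lists, the genes named are the regulators and called genes with the lowest or highest differences.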

Additional observations from a re-analysis of the deposited data

Results flagged for a closer look

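In 21 genes the difference of JQ1 plus PDGF minus PDGF alone was lower at 24 h than at 2 h, by the test of that change itself in limma (adjusted p under 0.05). The change, as log2 difference at 24 h minus that at 2 h, was -1.71 for Ndc80, -2.02 for Nuf2, -1.76 for Cenpa, -1.09 for Cenpf and -0.91 for Spc25 among centromere and kinetochore genes. Among spindle genes it was -2.11 for Kif20a, -1.63 for Kif2c, -1.54 for Kif23, -1.10 for Prc1, -1.06 for Kif11, -0.99 for Tpx2 and -0.92 for Kif22. The passenger complex genes Birc5, Aurkb and Cdca8 were at -2.10, -1.09 and -0.85. Ccna2 was at -1.92, Cdk1 at -1.61, Cdca3 at -1.45, Plk1 at -1.14, Top2a at -1.02 and Mad2l1 at -0.98.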

How the results depend on the processing

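No paired analysis was possible because the columns' digits match no letter in the sample titles. For the genes named, 115 calls over all alternatives were lost and 21 gained, and 20 differences that had not passed changed sign. With single libraries left out, the counts of the 39 genes called lower ran from 7 to 22 for PDGF 2 h against unstimulated cells, 33 to 37 for PDGF 24 h against unstimulated cells, 22 to 26 for PDGF 24 h against PDGF 2 h, 21 to 26 for JQ1 at 2 h, 38 to 39 for JQ1 at 24 h, 34 to 36 for JQ1 plus PDGF at 24 h against 2 h and 17 to 29 for the change of the JQ1 difference. The count of 7 came without either unstimulated library. With PDGF 2 h digit 1 and PDGF 24 h digit 0 both left out, the first count was 23 and the last 27. In unnormalised FPKM the summed level of the 39 genes was 219 at 24 h of PDGF, 411 in JQ1 plus PDGF at 2 h and 888.6 in unstimulated cells. CHR letters lay in the last 150 bases before the start in 16 windows.

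With single libraries left out, these differences, none of which had passed, changed sign. For PDGF 2 h against unstimulated cells Aurkb ran from -0.23 to 0.14, Ccna2 from -0.31 to 0.12 and Ube2c from -0.10 to 0.42, and for PDGF 24 h Cdc25b ran from -0.45 to 0.0120. For PDGF 24 h against 2 h Aurka ran from -0.15 to 0.0700 and Kif22 from -0.14 to 0.0451. For JQ1 at 2 h Aurka ran from -0.22 to 0.0442 and Cdc25c from -0.27 to 0.0655. On the median-centred scale Cdc25c was at -0.13 for PDGF 24 h against 2 h, and for JQ1 at 2 h the values were 0.21 for Aurka, 0.21 for Cdc25c, 0.0692 for Kif23 and 0.15 for Nuf2. The change of the JQ1 difference of Pbk ran from -0.0139 to 0.60 with single libraries left out, and was -0.52 with a pseudocount of 0.1 and -0.0818 with both libraries left out. The cause was not tested, other than that leaving out libraries leaves fewer samples.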
